A study of Homo sapiens with 12 samples.

Results

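The 10 genes described here write, read and erase the methyl mark on cytosine, and they were taken by symbol from the 60651 genes of a count table of bile duct cancer cells under a DNA methyltransferase inhibitor, a PARP inhibitor or both. They are the methyltransferases DNMT1, DNMT3A and DNMT3B, the methyl-CpG readers UHRF1, UHRF2 and MBD2, and, on the erasing side, the dioxygenases TET1, TET2 and TET3 with the glycosylase TDG. Each symbol was found once, and all 10 genes passed the filter on low counts in every fit. RNA was sequenced from 12 libraries of 2 established cholangiocarcinoma lines, with 2 libraries in each of 6 groups. EGI-1 cells were given DMSO as vehicle, 0.5 µM decitabine, 200 nM talazoparib, or the 2 drugs together, and HUCCT1 cells were given vehicle or 1 µM decitabine. All were harvested after 72 h in six-well plates, and all carry the genotype label WT. The names of the talazoparib libraries carry another number than the labelled dose. The labels do not say whether the 2 libraries of a group came from separate cultures, so p-values measure the spread between these libraries, which may be technical. The decitabine doses differ between the lines, and the lines were sequenced on different lanes, so line, lane and dose cannot be told apart.

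DNMT1 copies methylation to the new strand after replication, and UHRF1 brings it to hemimethylated CpG sites, so both are known as maintenance factors that dividing cells make in S phase. DNMT3A and DNMT3B methylate sites that carried no mark. The TET enzymes oxidise 5-methylcytosine, and TDG excises the oxidised bases so that base excision repair can put back an unmodified cytosine. MBD2 binds methylated CpG and recruits the NuRD repressor complex. Decitabine is a cytidine analogue that is built into DNA and traps DNA methyltransferase protein there, and talazoparib traps PARP on DNA. Only transcript levels were measured here, not protein or methylation.

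Start site windows of UHRF1 and DNMT1 are shown because they hold an E2F motif, known from the promoters of many S phase genes. RefSeq gives 21 windows from 250 bases before to 50 after the start site for the 10 genes on GRCh38. They were searched on both strands for the 4 E2F cores TTTCCCGC, TTTCGCGC, TTTGCCGC and TTTGGCGC. A core lay in 3 of these windows, 1 of DNMT1 and 2 of UHRF1, against 3.31% of all 35116 windows. Another UHRF1 window held none. Each listed core holds a CpG, and 16 of the 21 windows have more CpG than the median of 14 over all windows. The share of all windows is not matched for CpG content, so no enrichment is read from it. Below are the 200 bases before and the 20 from the start site, on the gene's own strand, with the core in capitals. The DNMT1 core starts at position -2 (chr19:10194934-10195153, gene on the minus strand). The UHRF1 cores start at -14 (chr19:4909301-4909520) and -160 (chr19:4909944-4910163), with the gene on the plus strand. The cores at -2 and -14 match on the strand opposite to the gene, so their capitals are the reverse complement of a listed core. The core at -160 matches as printed.
DNMT1: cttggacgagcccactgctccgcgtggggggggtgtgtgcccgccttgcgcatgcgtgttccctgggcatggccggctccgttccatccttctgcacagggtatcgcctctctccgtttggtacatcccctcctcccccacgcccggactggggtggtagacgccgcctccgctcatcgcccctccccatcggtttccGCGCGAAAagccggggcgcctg
UHRF1, first start site: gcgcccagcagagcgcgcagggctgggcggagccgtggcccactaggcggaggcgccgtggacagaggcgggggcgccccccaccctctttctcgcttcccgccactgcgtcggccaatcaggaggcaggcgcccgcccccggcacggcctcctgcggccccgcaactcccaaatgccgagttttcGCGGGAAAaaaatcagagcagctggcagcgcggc
UHRF1, second start site: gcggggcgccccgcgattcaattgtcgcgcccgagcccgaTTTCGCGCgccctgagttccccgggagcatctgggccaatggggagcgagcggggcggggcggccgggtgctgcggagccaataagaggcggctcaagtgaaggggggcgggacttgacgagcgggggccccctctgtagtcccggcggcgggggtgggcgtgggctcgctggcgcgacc
A match is a description of the letters and not a binding site. For DNMT1, UHRF1 and DNMT3B the GENCODE annotation also has start sites upstream of the windows, which were not searched, and the single DNMT3B window lies inside the gene, so nothing is said here of the DNMT3B promoter.

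Total counts ran from 23139065 to 33181930 in EGI-1 and from 32519985 to 34965627 in HUCCT1. The lowest member count was 56, for TET1 in a HUCCT1 library, and the highest 14445, for DNMT1. Levels are given in CPM, which corrects each count for sequencing depth by TMM within its line, and differences are log2 fold changes with SE from edgeR's quasi-likelihood fit, called at a Benjamini-Hochberg adjusted p under 0.05. All 6 epithelial markers were detected in all libraries, KRT19 at 1420 CPM or more. One library stood apart. Replicate 2 of the EGI-1 combination held 381 counts of PTPRC and 148 of CD3E, genes of blood and T cells, against 1 to 7 and 0 to 23 in the other 11 libraries. CD68 stayed at 0 to 10 counts throughout. Of the 10 markers of other cell types, 3 passed the filter in EGI-1, and their list summed to 36.7 and 38.4 CPM under vehicle and to 63.8 and 73.9 CPM in the combination. In HUCCT1 that sum was 29.1 and 30.5 CPM under vehicle and 160.8 and 188 CPM under decitabine, where all 5 markers tested rose, COL1A1 by 2.62 on the log2 scale. The part of these transcripts in the results below was not tested, and values without that combination library are given with the combination results. In bulk RNA, fewer cells of a type and less RNA per cell cannot be told apart.

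**Figure D1:**
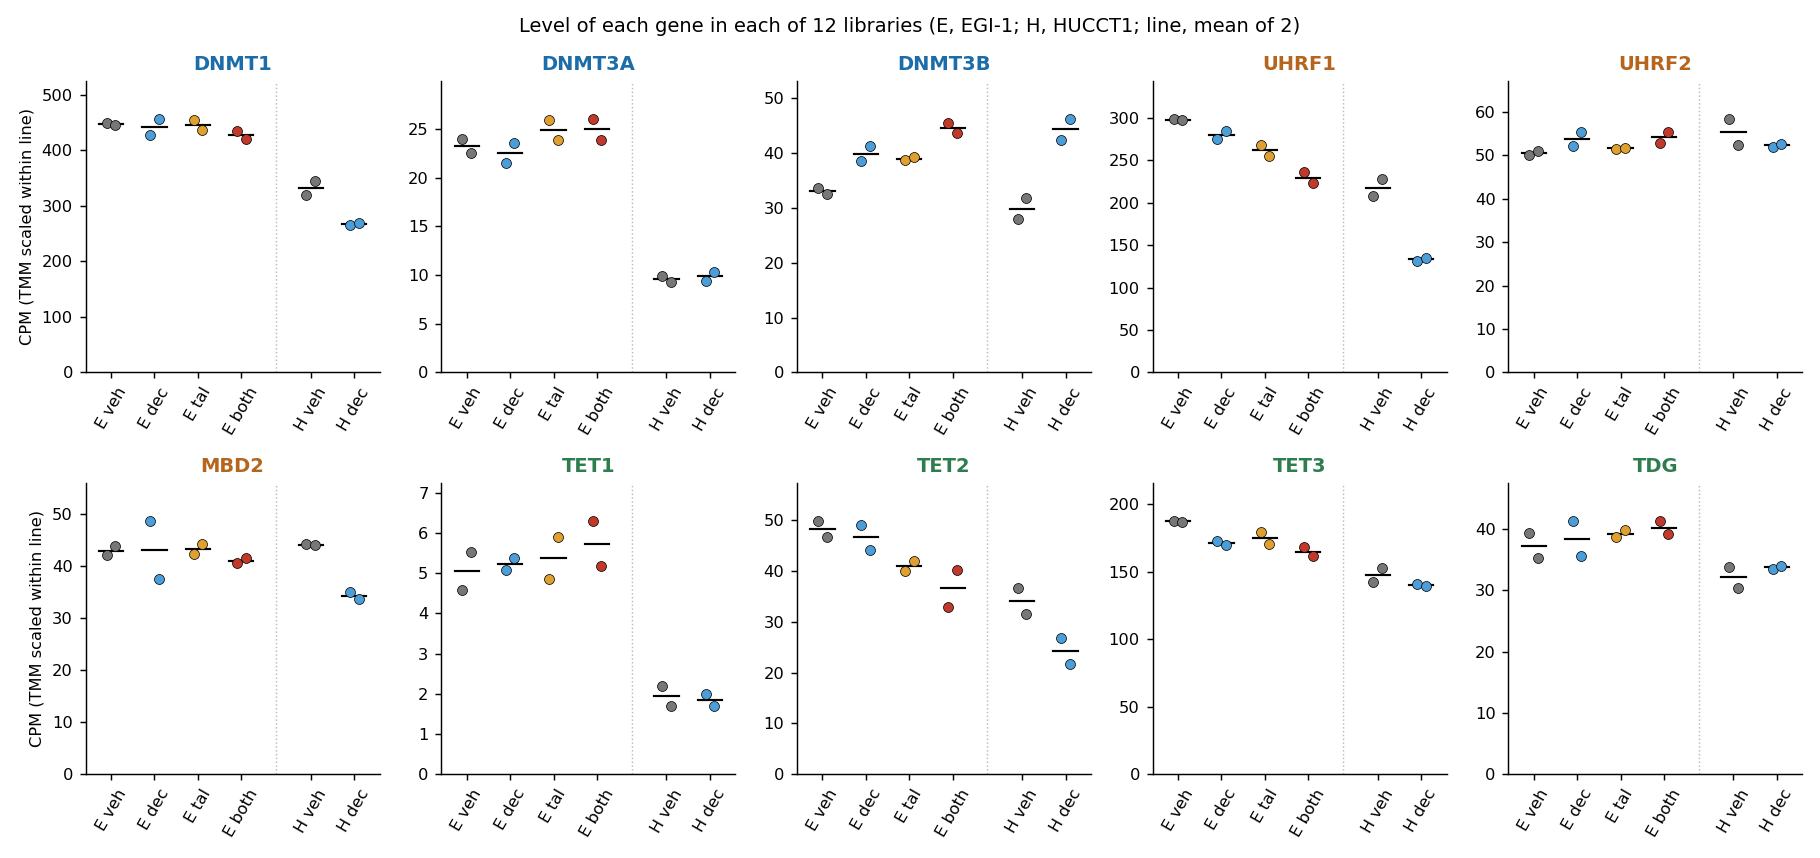
Level of each of the 10 genes in CPM (TMM scaled within each line) for all 12 libraries. Points are libraries, black lines the means of 2, E stands for EGI-1, H for HUCCT1, veh for vehicle, dec for decitabine, tal for talazoparib and both for the combination, and gene names are blue for writers, brown for readers and green for erasers. DNMT3B rose from 33.0 to 44.5 CPM and UHRF1 fell from 297.5 to 229 CPM between vehicle and combination in EGI-1.

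Across the 4 comparisons with vehicle, DNMT3B was the gene of the 10 called higher, and UHRF1 and TET2 were called lower in the same pair of comparisons, the EGI-1 combination and HUCCT1 decitabine. In the EGI-1 combination 4 of 10 genes were called, 1 higher and 3 lower, where 18.7% of all 22406 genes tested were called, 11.1% higher and 7.61% lower. In HUCCT1 decitabine 5 of 10 were called, 1 higher and 4 lower, where 33.5% of 22479 genes were, 19.6% higher and 13.9% lower. In both, 3 genes were called in the same direction and 0 in opposite directions. The share of all genes called in both was not computed, so nothing is read from this overlap. Neither agent alone gave a call in EGI-1 in the fit of all 8 libraries. Decitabine gave 0 of 10 by edgeR and 0 by DESeq2, with 2 at an unadjusted p under 0.05, where 0.544% of all genes were called. Talazoparib gave 0 of 10 by both tools, with 3 at an unadjusted p under 0.05, where 4.12% of all genes were called. With only the 4 libraries of that comparison, UHRF1, DNMT3B and TET2 were called under talazoparib, where 1851 of all genes were. DNMT3A, UHRF2, TET1 and TDG were the 4 genes called in none of the comparisons with vehicle.

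Among the writers, DNMT1 was called in no EGI-1 arm and was lower in HUCCT1 under decitabine. EGI-1 libraries had 449 and 446 CPM under vehicle, 427 and 457 under decitabine, 454 and 437 under talazoparib and 435 and 421 in the combination. Both combination libraries lay below both vehicle and both talazoparib libraries, and the other arms overlapped. The difference between combination and vehicle was -0.06 ± 0.05 (log2, SE, edgeR adjusted p = 0.465), with a 95% interval from -0.18 to 0.05. In HUCCT1 the vehicle libraries had 320 and 344 CPM and the decitabine libraries 265 and 269.5, which is 19.5% lower (log2 -0.31 ± 0.10 SE, edgeR adjusted p = 0.0227). That call was lost without decitabine replicate 1 (-0.30, adjusted p = 0.147), decitabine replicate 2 (-0.33, 0.119) or vehicle replicate 2 (-0.27, 0.14). The DNMT1 exons share 83 bases with S1PR2, 0.54% of their length. TET3 shares 3.01% and TDG 3.44% of its exon length with a long noncoding RNA on the same strand.

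DNMT3B, the de novo enzyme that is the more abundant of the pair per length in these cells, rose in the EGI-1 combination and in HUCCT1. In EGI-1 it had 33.5 and 32.5 CPM under vehicle, 38.5 and 41.2 under decitabine, 38.6 and 39.3 under talazoparib and 45.4 and 43.5 in the combination. Both libraries of each single agent lay above both vehicle libraries and below both combination libraries. The combination was 34.6% above vehicle (log2 0.43 ± 0.08 SE, edgeR adjusted p = 0.000768), and all 15 alternatives kept the call. Without combination replicate 2 the difference was 0.46 with an adjusted p of 0.00554. Each agent alone gave a smaller difference that missed the threshold, 0.27 ± 0.08 for decitabine (edgeR adjusted p = 0.177) and 0.24 ± 0.08 for talazoparib (edgeR adjusted p = 0.106). The talazoparib difference was called without decitabine replicate 1 (0.23, adjusted p = 0.0474) or 2 (0.24, 0.0470), libraries that enter the fit through the shared spread. In HUCCT1 it had 27.9 and 31.8 CPM under vehicle and 42.3 and 46.1 under decitabine, 48.3% higher (log2 0.57 ± 0.12 SE, edgeR adjusted p = 0.000509), and all 9 alternatives kept that call. DNMT3A, the other de novo enzyme, ranged from 21.5 to 26.0 CPM over the EGI-1 libraries and from 9.31 to 10.4 CPM in HUCCT1. Its difference from vehicle was 0.10 (95% interval -0.10 to 0.30) in the combination and 0.04 (-0.27 to 0.35) in HUCCT1.

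Among the readers, UHRF1 fell the most, and it was the gene of the 10 with the smallest p in the EGI-1 combination, in HUCCT1 decitabine and in the difference between the lines. EGI-1 libraries had 298 and 297 CPM under vehicle, 275 and 285 under decitabine, 268 and 254.5 under talazoparib and 235.5 and 223 in the combination. Every treated library lay below both vehicle libraries, and both combination libraries lay below all the others. The combination was 22.9% below vehicle (log2 -0.38 ± 0.06 SE, edgeR adjusted p = 0.000148), and all 15 alternatives kept the call. Without combination replicate 2 the difference was -0.34 with an adjusted p of 0.00633. Talazoparib alone gave -0.19 ± 0.06 (edgeR adjusted p = 0.0768), and decitabine alone -0.09 ± 0.06 (edgeR adjusted p = 0.711). The talazoparib difference was called without decitabine replicate 1 (-0.19, adjusted p = 0.0176) or 2 (-0.19, 0.0188). In HUCCT1 UHRF1 had 207 and 227 CPM under vehicle and 131 and 135 under decitabine, 38.7% lower (log2 -0.71 ± 0.11 SE, edgeR adjusted p = 1.01e-05), and all 9 alternatives kept that call.

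UHRF2, the closest relative of UHRF1, was not called. This protein, which shares its domains and does not take its place in maintenance, ranged from 50.03 to 55.3 CPM over the EGI-1 libraries and from 51.8 to 58.3 in HUCCT1. Its difference from vehicle was 0.10 (95% interval -0.05 to 0.25) in the combination and -0.08 (-0.31 to 0.15) in HUCCT1. The difference between the UHRF1 and UHRF2 changes was not tested. MBD2 had 42.1 and 43.8 CPM under vehicle and 40.7 and 41.5 in the combination, a difference of -0.06 (-0.27 to 0.14). Its 2 EGI-1 decitabine libraries, at 48.8 and 37.5 CPM, lay on both sides of the vehicle libraries. In HUCCT1 MBD2 had 44.2 and 44.01 CPM under vehicle and 35.1 and 33.6 under decitabine, 22.1% lower (log2 -0.36 ± 0.11 SE, edgeR adjusted p = 0.0156), a call lost without decitabine replicate 1 (-0.39, 0.0508) or 2 (-0.33, 0.115).

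**Figure D2:**
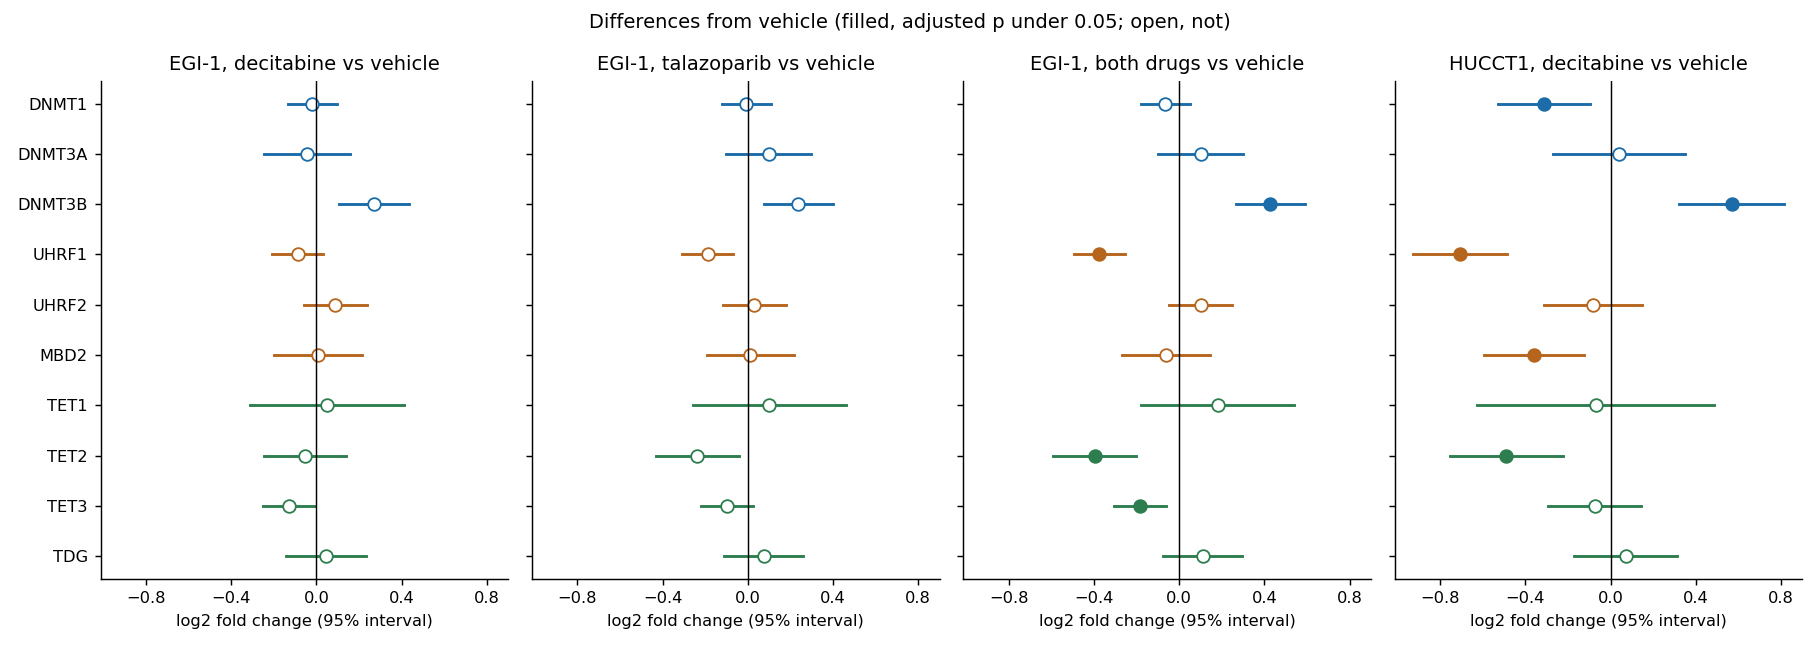
Log2 fold change from vehicle of the 10 genes (rows) in 4 comparisons (panels), with bars for the 95% interval of edgeR's fit and the zero line in black. Filled points have an adjusted p under 0.05 and open points do not, with writers in blue, readers in brown and erasers in green. DNMT3B lies to the right and UHRF1 and TET2 to the left, filled, in the panels of both drugs in EGI-1 and of decitabine in HUCCT1.

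Among the erasers, TET2 fell in the EGI-1 combination and in HUCCT1, on values more uneven than those of UHRF1. EGI-1 libraries had 49.9 and 46.7 CPM under vehicle, 49.0 and 44.2 under decitabine, 39.99 and 41.95 under talazoparib and 33.0 and 40.3 in the combination. Both talazoparib and both combination libraries lay below all vehicle and decitabine libraries, and the higher combination value is that of the library with T cell transcripts. Talazoparib alone gave -0.24 ± 0.09 (edgeR adjusted p = 0.192), and decitabine alone -0.05 ± 0.09 (edgeR adjusted p = 0.925). The combination was 24.1% below vehicle (log2 -0.40 ± 0.09 SE, edgeR adjusted p = 0.00578). Without combination replicate 2 the difference was -0.55 with an adjusted p of 0.00224, without combination replicate 1 it was -0.26 (adjusted p = 0.101), and without vehicle replicate 1 it was -0.35 (adjusted p = 0.0895). In HUCCT1 TET2 had 36.6 and 31.6 CPM under vehicle and 26.8 and 21.7 under decitabine, 28.8% lower (log2 -0.49 ± 0.13 SE, edgeR adjusted p = 0.00412). That call was lost without decitabine replicate 2 (-0.35, 0.101).

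TET3, the most abundant of the TET enzymes per length, had 188 and 187 CPM under vehicle, 172 and 170 under decitabine, 179 and 170 under talazoparib and 167.9 and 161.5 in the combination. All treated EGI-1 libraries lay below both vehicle libraries. The combination was 12.01% lower (log2 -0.18 ± 0.06 SE, edgeR adjusted p = 0.034), but 8 of 15 alternatives lost the call, among them DESeq2 (-0.17, adjusted p = 0.0512) and the fit without combination replicate 2 (-0.16, 0.208). The call was also lost without combination replicate 1 (-0.21, 0.0732), vehicle replicate 1 (-0.18, 0.202) and vehicle replicate 2 (-0.19, 0.19). In HUCCT1 TET3 had 142 and 153 CPM under vehicle and 141 and 139 under decitabine, a difference of -0.07 (95% interval -0.29 to 0.14). TET1 stayed low, from 4.57 to 6.31 CPM in EGI-1 and from 1.69 to 2.19 CPM in HUCCT1, with intervals that allow changes from -0.18 to 0.54 in the combination and from -0.63 to 0.49 in HUCCT1. TDG ranged from 35.2 to 41.3 CPM in EGI-1 and from 30.3 to 34.0 CPM in HUCCT1, with a difference of 0.11 (-0.08 to 0.30) in the combination and 0.07 (-0.17 to 0.31) in HUCCT1.

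Against decitabine alone, 2 of 10 genes were called lower in the combination, where 7.68% of all genes were called, 3.26% lower. UHRF1 was 18.1% lower (log2 -0.29 ± 0.06 SE, edgeR adjusted p = 0.00371), a call lost without combination replicate 2 (-0.25, adjusted p = 0.0724). TET2 was 21.3% lower (log2 -0.35 ± 0.09 SE, edgeR adjusted p = 0.0293), a call that 6 of 15 alternatives lost, among them the fits without combination replicate 1 (-0.21, 0.299), decitabine replicate 1 (-0.27, 0.119), vehicle replicate 1 (-0.34, 0.0614) and vehicle replicate 2 (-0.34, 0.0647). Without combination replicate 2 it was -0.50 with an adjusted p of 0.0112. Against talazoparib alone 0 of 10 genes were called by edgeR or DESeq2, with 2 at an unadjusted p under 0.05, where 1.92% of all genes were called. These 2 were UHRF1 (-0.19, edgeR adjusted p = 0.116) and DNMT3B (0.19, edgeR adjusted p = 0.275), singled out after their values were seen. UHRF1 was called there without decitabine replicate 1 (-0.18, adjusted p = 0.0360) or 2 (-0.18, 0.0373), and it was -0.15 with an adjusted p of 0.539 without combination replicate 2. DNMT3B was then 0.23 (adjusted p = 0.453). The interaction, by which the log2 effect of both drugs exceeds or falls short of the 2 single effects added, called 0 of 10 genes by edgeR or DESeq2, with 0 at an unadjusted p under 0.05, where 0.161% of all genes were called. For UHRF1 it was -0.10 (95% interval -0.27 to 0.07), for DNMT3B -0.08 (-0.31 to 0.15) and for TET2 -0.11 (-0.38 to 0.17). These were -0.06, -0.04 and -0.26 without combination replicate 2, again not called. These comparisons share control libraries.

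Ratios of counts within a library do not depend on its scaling. DNMT3B had 7.46 and 7.29 counts per 100 DNMT1 counts under EGI-1 vehicle, 9.001 and 9.025 under decitabine, 8.50 and 8.99 under talazoparib and 10.4 and 10.3 in the combination. In HUCCT1 the ratio was 8.71 and 9.23 under vehicle and 15.9 and 17.1 under decitabine. Both lines thus showed more DNMT3B per DNMT1 in treated libraries, with no overlap with vehicle. UHRF1 had 66.4 and 66.4 counts per 100 DNMT1 counts under EGI-1 vehicle, 64.4 and 62.4 under decitabine, 59.0 and 58.2 under talazoparib and 54.1 and 53.0 in the combination. In HUCCT1 it had 64.8 and 66.01 under vehicle and 49.5 and 50.1 under decitabine. All treated libraries of a line lay below both of its vehicle libraries. An exact permutation test of 2 against 2 libraries cannot give a two-sided p below 0.333, so these ratios carry no test. The combination library with T cell transcripts is the second of each pair, and the other library alone also lay beyond all vehicle and single agent libraries.

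**Figure D3:**
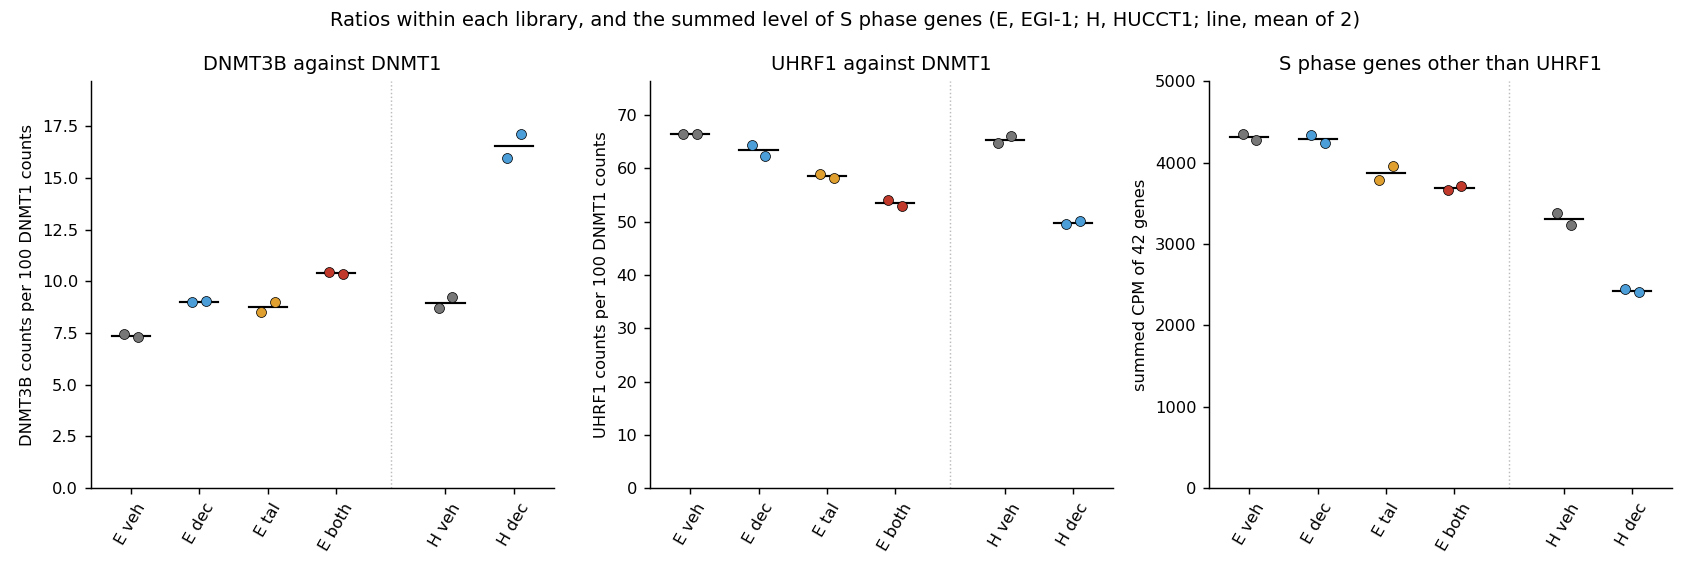
DNMT3B and UHRF1 counts per 100 DNMT1 counts (left and middle) and the summed CPM of 42 S phase genes other than UHRF1 (right), per library, with black lines for the means of 2 and the groups as E for EGI-1 and H for HUCCT1. The DNMT3B ratio runs from 7.29 under EGI-1 vehicle to 17.1 under HUCCT1 decitabine, and the S phase sum is lowest, 2408 and 2449, under HUCCT1 decitabine.

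Most of the tested genes listed as maintenance partners of DNMT1 and UHRF1 were called lower in the EGI-1 combination and in HUCCT1 decitabine, against vehicle. The list holds replication fork proteins such as PCNA and LIG1, and also chromatin proteins such as EHMT1, SETDB1, TRIM28, HDAC1 and HDAC2. Of 15 maintenance partners listed, 12 were tested. In the EGI-1 combination 8 were called lower and 1 higher, where 18.7% of all genes were called, with a median of -0.30 (log2) against -0.02 over all genes. PCNA, the sliding clamp, changed by -0.61 ± 0.06 (SE, edgeR adjusted p = 5.89e-07), and CDCA7 and HELLS, which form a nucleosome remodeller needed for maintenance, by -0.50 ± 0.08 (0.000346) and -0.43 ± 0.07 (0.000386). The 1 gene that rose, named after its value was seen, was the deacetylase HDAC1, by 0.25. In HUCCT1 decitabine 10 of the 12 were called lower and 0 higher, where 33.5% of all genes were called, with a median of -0.46 against 0.002, led by CDCA7 at -1.45 ± 0.14 (edgeR adjusted p = 5.32e-09), the ligase LIG1 at -0.80 ± 0.11 (4.38e-06) and HELLS at -0.82 ± 0.12 (6.26e-06). Without combination replicate 2 the EGI-1 count was 7 in place of 9, and it was 4 without vehicle replicate 1, 5 without vehicle replicate 2 and 5 without combination replicate 1, the calls in these last 3 fits all lower. PCNA (-0.64), CDCA7 (-0.51), HELLS (-0.41) and HDAC1 (0.27) were each still called without combination replicate 2. Against decitabine alone the combination called 4 of the 12 lower and 1 higher, where 7.68% of all genes were called, 3.26% lower. That count depended on which library was left out. EGI-1 decitabine against vehicle called 0 of the 12, where 0.544% of all genes were called, so 0 is near that share.

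Of 42 S phase genes other than UHRF1, 18 were called lower and 0 higher in the EGI-1 combination, 15 without its replicate 2, and 28 lower and 0 higher in HUCCT1, where 7.61% and 13.9% of all genes were called lower. The medians were -0.19 and -0.42, against -0.02 and 0.002 over all genes. The counts were 11 lower without EGI-1 vehicle replicate 1 and 17 lower without HUCCT1 decitabine replicate 2. The replicative helicase subunit MCM6 changed by -0.86 ± 0.06 (edgeR adjusted p = 2.58e-08) in the combination, -0.83 without its replicate 2, and by -0.95 ± 0.11 (1.28e-07) in HUCCT1. The summed level of the 42 genes was 4352 and 4285 CPM under EGI-1 vehicle, 4342 and 4237 under decitabine, 3786 and 3957 under talazoparib and 3666 and 3718 in the combination. It was 3377 and 3236 CPM under HUCCT1 vehicle and 2449 and 2408 under decitabine. The S phase sum thus moved in the same direction as UHRF1 in the EGI-1 combination and in HUCCT1, and in the other direction from DNMT3B, and its part in these results was not tested. The list holds DNMT1 partners such as PCNA and CDCA7, so the 2 lists are not separate.

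Genes of the other steps were called in both directions. Of 17 further methyl-CpG readers and NuRD subunits tested, 4 were lower and 2 higher in the combination and 6 lower and 2 higher in HUCCT1, 35.3% and 47.1% against 18.7% and 33.5% of all genes. In HUCCT1, MBD5 changed by -0.97 ± 0.13 (edgeR adjusted p = 2.22e-06) and the NuRD subunit MTA1 by -0.80 ± 0.11 (2.76e-06). ZBTB4 rose by 0.28 in the combination and fell by 0.58 in HUCCT1. Of 17 genes that supply the TET cofactor or repair excised bases, 4 were lower and 1 higher in the combination and 5 lower and 3 higher in HUCCT1, 29.4% and 47.1% against the same shares of all genes. The uracil glycosylase UNG changed by -0.47 ± 0.07 (edgeR adjusted p = 0.000118) in the combination and IDH2, which makes 2-oxoglutarate in mitochondria, by 0.33 ± 0.06 (0.00126). IDH1, its cytosolic relative, changed by -0.93 ± 0.12 (edgeR adjusted p = 7.45e-07) and the repair polymerase POLB by 0.73 ± 0.14 (0.000225) in HUCCT1. Without combination replicate 2 the combination counts were 2 of 17 readers, both higher, and 3 of 17 of these, and ZBTB4 (0.31), UNG (-0.48) and IDH2 (0.33) were still called. The readers gave 0 without either vehicle library and 3 without combination replicate 1, and the cofactor and repair genes 2 without vehicle replicate 2. In HUCCT1 the readers gave 4 without decitabine replicate 2.

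Proteins that keep CpG islands free of methylation or mark the sites where DNMT3 enzymes act gave 3 lower and 1 higher of 11 in the combination and 2 lower and 0 higher of 10 in HUCCT1. The first is 36.4% of those tested, against 18.7% of all genes, and the second lies below the 33.5% of all genes called there. NSD2, a histone methyltransferase, was called lower in both, by -0.25 ± 0.05 (edgeR adjusted p = 0.00201) and -0.35 ± 0.10 (0.0112). FBXL19 rose by 0.43 in the combination, named after its value was seen. The count was again 3 lower and 1 higher without combination replicate 2, with NSD2 at -0.22 and FBXL19 at 0.51, both called. The methyl donor cycle gave 1 call of 14 in the combination, AHCYL2 at 0.42 ± 0.10 (edgeR adjusted p = 0.00614, and 0.0550 without combination replicate 2), and 3 lower and 2 higher of 13 in HUCCT1, led by the folate enzyme MTHFD1 at -0.54 ± 0.10 (0.000216). These shares, 7.14% and 38.5%, lie below and near those of all genes. The 1 call without combination replicate 2 was another gene, MAT2A, at -0.25. Without vehicle replicate 2 the island proteins gave 2 calls in the combination, and in HUCCT1 they gave 0 without decitabine replicate 2. The donor cycle gave 0 calls in the combination without either vehicle library and 4 without either decitabine library, and in HUCCT1 1 or 2 without any single library. Over the 5 lists EGI-1 decitabine alone called 0 genes in each, which is near the 0.544% of all genes called there. In HUCCT1 decitabine 4 of 6 epithelial markers were called lower, where 13.9% of all genes were called lower. KRT18 changed by -0.90 ± 0.10 (edgeR adjusted p = 1.31e-07). The summed level of the 6 was 13170 and 14590 CPM under vehicle and 7974 and 9141 under decitabine. The EGI-1 combination called 3 of the 6 higher and 0 lower, where 11.1% of all genes were called higher. SOX9 rose by 0.93 and KRT7 by 0.70 (0.94 and 0.76 without combination replicate 2). The part of the epithelial markers in the results on the 10 genes was not tested.

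The decitabine effect was compared between lines in a fit over all 12 libraries and 25096 genes, and 1 of 10 genes was called where 15.9% of all genes were, 7.2% lower. UHRF1 fell by 0.60 more in HUCCT1 on the log2 scale (SE 0.10, edgeR adjusted p = 0.000285), and the difference was called in all 13 alternatives. The difference was -0.28 ± 0.10 for DNMT1 (edgeR adjusted p = 0.0634), -0.42 ± 0.16 for TET2 (0.0752), -0.35 ± 0.14 for MBD2 (0.102) and 0.32 ± 0.13 for DNMT3B (0.115), none of them called. Leaving out 1 library brought some of these under the threshold. DNMT1 was called without HUCCT1 vehicle replicate 1 (-0.35, adjusted p = 0.0208) or EGI-1 decitabine replicate 1 (-0.34, 0.0493), and TET2 without HUCCT1 decitabine replicate 1 (-0.58, 0.0193) or HUCCT1 vehicle replicate 2 (-0.52, 0.0413). DNMT3B was called without HUCCT1 vehicle replicate 2 (0.42, 0.0449) and MBD2 without EGI-1 decitabine replicate 2 (-0.53, 0.00690). Dose and line cannot be told apart in this comparison.

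Under vehicle alone, 7 of 10 genes differed between the lines, 2 higher and 5 lower in HUCCT1, where 55.8% of all genes were called, 28.5% higher and 27.3% lower. Scaled over both lines, DNMT3A had 22.8 and 21.4 CPM in EGI-1 and 10.9 and 10.4 in HUCCT1, a log2 difference of -1.05 ± 0.11 (edgeR adjusted p = 4.58e-08). TET1 had 4.33 and 5.25 CPM in EGI-1 and 2.41 and 1.89 in HUCCT1, a difference of -1.16 ± 0.21 (edgeR adjusted p = 5.62e-05). UHRF2 had 47.4 and 48.4 CPM in EGI-1 and 64.1 and 58.3 in HUCCT1, a difference of 0.35 ± 0.08 (edgeR adjusted p = 0.000846). These 3 were called in all 9 alternatives. DNMT1 (-0.21, edgeR adjusted p = 0.0157), UHRF1 (-0.23, 0.0108), TET2 (-0.28, 0.0364) and MBD2 (0.26, 0.0308) were called by smaller differences that lost the call in 3 to 6 of 9 alternatives. Leaving out either EGI-1 vehicle library ended all 4 of these calls (adjusted p from 0.0501 to 0.203). Without HUCCT1 vehicle replicate 1 the calls of DNMT1 (-0.14, 0.141), UHRF1 (-0.15, 0.130) and MBD2 (0.27, 0.0652) were lost, and without replicate 2 those of TET2 (-0.19, 0.258) and MBD2 (0.26, 0.0892). Upper-quartile scaling moved the median of all genes by -0.118, and MBD2 was then 0.14 with an adjusted p of 0.243. DNMT3B (0.08), TET3 (-0.12) and TDG (0.01) were not called.

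**Figure D4:**
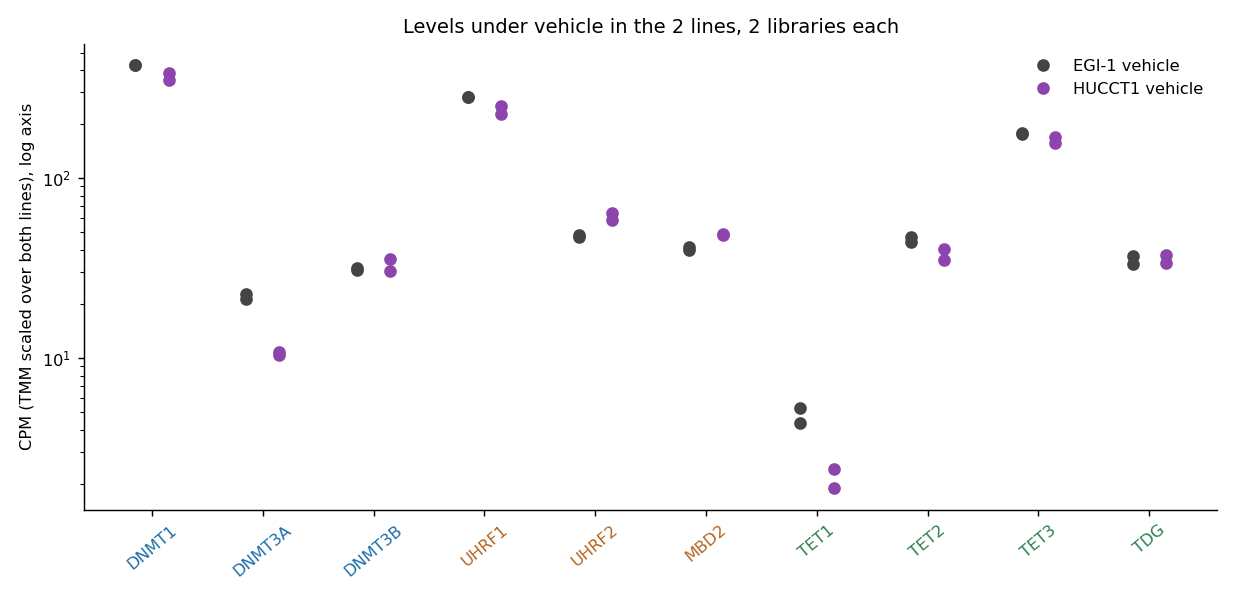
Level of the 10 genes under vehicle in EGI-1 (grey) and HUCCT1 (purple), in CPM scaled over both lines on a log axis, with 2 libraries per line as points and gene names in blue, brown and green for writers, readers and erasers. DNMT3A and TET1 sit lower in HUCCT1, with log2 differences of -1.05 and -1.16, and UHRF2 sits higher.

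Per kilobase of merged exons, UHRF1 was the highest of the 10 genes and DNMT1 the next in all 6 groups, and TET1 was the lowest. Under EGI-1 vehicle the level was 57.8 ± 0.25 CPM per kilobase (SD, n = 2) for UHRF1, 29.1 ± 0.12 for DNMT1, 14.5 ± 0.06 for TET3, 7.62 ± 0.59 for TDG, 7.56 ± 0.21 for MBD2, 5.09 ± 0.06 for UHRF2, 4.804 ± 0.10 for DNMT3B, 2.93 ± 0.14 for TET2, 1.69 ± 0.08 for DNMT3A and 0.526 ± 0.07 for TET1. TDG and MBD2 overlapped, and no other neighbours did. In HUCCT1 vehicle the order was the same but for MBD2 above TDG, from 42.2 ± 2.73 for UHRF1 to 0.202 ± 0.04 for TET1, with no overlap between neighbours. Under HUCCT1 decitabine UHRF1 was at 25.9 ± 0.52 and DNMT1 at 17.4 ± 0.19, and DNMT3B, at 6.43 ± 0.39, overlapped MBD2. Divided by the longest transcript in place of the merged exons, 28 of 60 places in the 6 orders moved. DNMT1 then passed UHRF1 under HUCCT1 decitabine, EGI-1 talazoparib and the combination, so the order of the top pair there depends on the length used.

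Over the 12 libraries, UHRF1, TET2 and DNMT3B had the widest ranges of log2 CPM centred within each line, at 0.79, 0.74 and 0.72, and UHRF2 the narrowest at 0.18. The genes with the most similar centred profile among 14237 were picked by the smallest root mean square difference. For UHRF1 they were VAC14, ZNF76 and BCAR3, at 0.0427, 0.0427 and 0.0433. For TET2 they were SMARCE1, CLOCK and BLTP1, at 0.0322, 0.0563 and 0.0566. For DNMT3B they were NFKBIE, CCDC69 and USB1, at 0.0484, 0.0526 and 0.0587. So small a difference, the smallest of so many genes, describes these libraries alone.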

How the data were processed

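RNA sequencing of 12 libraries was analysed from a single table of gene counts that the authors deposited, raw and without normalization. Per the labels, the submitters' processing notes name fastp, Trim Galore, HISAT2 and featureCounts with GRCh38, whereas the paper's methods, which describe EGI-1 alone, name STAR and RSEM. The column names and layout are those of featureCounts. Those methods name a stranded TruSeq kit for EGI-1. Whether counting used strand, the treatment of reads that fit several genes and the annotation are not given in the sources used here, so counts of overlapping genes may mix.

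Of 60651 identifiers, 60437 matched a GENCODE 44 symbol. Positions and lengths come from that annotation. Counts were fitted with edgeR 4.0.16 in R 4.3.3 (filterByExpr by arm, minimum count 10, TMM, robust quasi-likelihood fit, Benjamini-Hochberg adjustment over all genes tested). The 8 EGI-1 libraries were fitted together (22406 genes), the 4 HUCCT1 libraries apart (22479) and all 12 jointly (25096) for comparisons between lines. Intervals are at 95% and rest on the spread between libraries. Chi-square per gene between replicates ran from 2.73 to 12.6, so no pair was counted as 1 library. In EGI-1 it was 2.73 for vehicle, 10.5 for decitabine, 5.17 for talazoparib and 4.64 for the combination. The EGI-1 comparisons share their estimate of spread, and the part of the decitabine pair in it was not tested. Total counts per library are given in the report.

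The members and the lists were chosen with earlier results of these data known. All 10 genes are named in every comparison, and from each other list the 3 with the smallest adjusted p in the EGI-1 combination and in HUCCT1 decitabine, except 1 gene that is not reported here. Genes alike in pattern needed a mean log2 CPM of at least 1, with 0.5 CPM added before logs. Alternatives were DESeq2 1.42.0, its size factors, upper-quartile factors, no filter, replicate blocks, the 4 libraries of a comparison alone and each library left out. The edgeR fit was tested on simulated counts with known changes, for the EGI-1 combination, HUCCT1 decitabine and the difference between lines. No other experiment of the paper was analysed here.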

Additional observations from a re-analysis of the deposited data

Results flagged for a closer look

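The change of UHRF1 under decitabine differed between the 2 lines by a test of the difference itself. In the fit over 12 libraries the change in HUCCT1 minus that in EGI-1 was -0.60 on the log2 scale (SE 0.10, edgeR adjusted p = 0.000285). Scaled within each line, UHRF1 went from 207 and 227 to 131 and 135 CPM in HUCCT1, lower in 2 of 2 libraries. In EGI-1 it went from 298 and 297 to 275 and 285 CPM, also lower in 2 of 2. That EGI-1 difference was not called (log2 -0.09 ± 0.06 SE, edgeR adjusted p = 0.711). HUCCT1 received 1 µM decitabine and EGI-1 0.5 µM, so line, lane and dose cannot be told apart.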

How the results depend on the processing

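No member that was called changed direction in any alternative. With 2 libraries per group, leaving 1 out leaves a lone library, whose spread is assumed to be that of the other groups, and small changes of low genes such as TET1 cannot be resolved at this depth. Leaving out each library in turn gave 0 to 2 members called for talazoparib, 2 to 4 for the combination against vehicle, 1 to 2 against decitabine, 0 to 1 against talazoparib, 2 to 5 for HUCCT1 decitabine, 1 to 3 for the difference between lines and 3 to 5 for the lines under vehicle. Over all genes the counts ran from 22 to 417 for EGI-1 decitabine (122 with all libraries), 247 to 1663 for talazoparib (923), 1850 to 5288 for the combination (4194), 853 to 2544 against decitabine (1720), 111 to 1007 against talazoparib (431), 27 to 85 for the departure from the sum (36) and 2540 to 3761 for the difference between lines (4000). Without a filter on low counts, EGI-1 decitabine called 335 genes, the combination against talazoparib 897 and the departure from the sum 71. The difference between lines then called 4 members in place of 1, and 4525 of all genes in place of 4000. With only the 4 libraries of a comparison, decitabine called 43 genes, talazoparib 1851 and 3 members (UHRF1, DNMT3B and TET2), the combination against decitabine 963 and 1 member, and against talazoparib 700. DESeq2 called 2 members in the difference between lines, DNMT1 besides UHRF1, and 3714 of all genes. The longest transcript as length moved 28 places in the order of levels. Upper-quartile factors split the genes called in the combination into 2177 higher and 2244 lower, against 2489 and 1705, and the filter left off split those of the difference between lines into 2020 and 2505. The cause of these shifts was not tested.

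Replicate numbers did not pair the samples. Deviations of same-numbered libraries from their group means correlated at -0.258 to 0.195 over the EGI-1 groups, and at 0.278 in the 1 HUCCT1 pair, and no label gives a number a shared batch. With the number in the titles as a replicate block, EGI-1 decitabine called 60 genes and the combination against talazoparib 249. The combination against decitabine then called 1 member and 1227 of all genes. The same block raised the genes called in HUCCT1 decitabine from 7525 to 10136. In the difference between lines it called 3 members, and 4580 of all genes in place of 4000. Whether the HUCCT1 libraries were paired was not tested. With the series in the library names as the block, EGI-1 decitabine called 75 genes. Both blocks lost TET3 in the combination (adjusted p = 0.0598 and 0.0595).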
